A study of Sus scrofa with 34 samples.

Results

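Chemokine genes were followed in the ileum of piglets fed a control diet or the same diet with a phytogenic feed additive (PFA), with the liver of the same trial as a contrast. The members are 10 chemokine symbols chosen by name, and they and the gene lists below were chosen with earlier results of these data known. Of the 10 symbols, 8 could be paired with a row among the 25880 gene rows of the files: CCL20, CCL25, CCL28, CCL5, CXCL8, CXCL9, CXCL10 and CXCL12. CXCL16 and CX3CL1 were paired with no row and were not analysed here. The ileum was sampled in 5 control and 5 PFA piglets, and the liver in 6 piglets of each of 4 diets: control, PFA, oxidized rapeseed oil (OO) and OO + PFA. All were weaned crossbred piglets, sampled on day 28, and 10 of them gave both tissues. The study's methods count day 28 from the start of the experimental diets, after weaning and acclimatization, so it is not the age of the piglets. PFA is a mixture mainly of oregano and caraway oils with carvacrol, menthol and methyl salicylate. The OO diets held more oil and more calculated energy than the diets without OO, so oxidation and added oil cannot be told apart. The study's methods give 1 pen per diet, which means that effects of pen and of diet cannot be told apart. A pig's name joins a diet code from the library title (C, control; P, PFA; OO; OP, both additions) to the pig's number. The liver of OP-77 was left out of the liver fits, as in the study. The study suspected RNA degradation in this library, which had its lowest share of mapped reads.

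Chemokines are small secreted proteins that bind receptors on white blood cells and draw those cells towards the site of release. CCL20 is made mainly by the epithelium over lymphoid follicles and attracts CCR6-bearing lymphocytes and dendritic cells, and its gene is a classic target of NF-κB. CCL25 and CCL28 are epithelial chemokines that home T cells and antibody-producing cells to the gut, through CCR9 and CCR10. CXCL8 attracts neutrophils, CXCL9 and CXCL10 are induced by interferon and attract CXCR3-bearing T cells, CCL5 is made largely by cytotoxic lymphocytes, and CXCL12 is a stromal chemokine that holds CXCR4-bearing cells in tissue.

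The sequences of 3 promoters are shown because their genes had the lowest PFA values relative to control in the ileum and carry motifs of the factors named above. Each is the 250 bases directly before the start of the RefSeq gene on Sscrofa11.1, given 5′ to 3′ on the strand of the gene, with motif matches in capitals. CCL20 is on the plus strand of chromosome 15 (window 129172493 to 129172742), and CXCL9 (71670237 to 71670486) and CXCL10 (71695949 to 71696198) both lie on the minus strand of chromosome 8.
CCL20: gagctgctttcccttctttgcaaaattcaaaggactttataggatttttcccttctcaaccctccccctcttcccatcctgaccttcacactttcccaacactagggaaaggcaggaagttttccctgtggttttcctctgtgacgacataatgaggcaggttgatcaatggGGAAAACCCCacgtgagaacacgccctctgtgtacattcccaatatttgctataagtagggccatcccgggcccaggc
CXCL9: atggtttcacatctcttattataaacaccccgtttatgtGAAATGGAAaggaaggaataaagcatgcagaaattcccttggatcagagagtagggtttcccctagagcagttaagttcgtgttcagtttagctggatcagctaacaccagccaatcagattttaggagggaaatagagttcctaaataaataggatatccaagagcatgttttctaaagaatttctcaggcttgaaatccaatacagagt
CXCL10: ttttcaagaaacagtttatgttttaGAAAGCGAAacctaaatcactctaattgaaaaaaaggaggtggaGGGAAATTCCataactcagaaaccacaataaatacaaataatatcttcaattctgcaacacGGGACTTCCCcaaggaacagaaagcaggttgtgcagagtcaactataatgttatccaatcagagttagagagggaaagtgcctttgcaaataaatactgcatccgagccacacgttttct

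The capitals in CCL20 mark a match to the kappaB motif, 78 to 69 bases before the gene start and read on the minus strand of the window. In CXCL9 they mark the interferon-stimulated response element, written here as GAAANNGAA, 211 to 203 bases before the start. CXCL10 held the same element 225 to 217 bases before its start and kappaB matches at 181 to 172 and at 120 to 111 bases. Motifs were searched on both strands, and no match of one motif overlapped a match of another in these windows. Among 19544 RefSeq promoters of this length, 14% held a kappaB match, 6.68% the interferon-stimulated element and 6.1% the gamma-activated site TTCNNNGAA. Of the 8 members, 3 held a kappaB match (CCL20, CCL5 and CXCL10), 2 the interferon-stimulated element (CXCL9 and CXCL10) and 1 the gamma-activated site (CXCL8). The kappaB motif was searched only as GGGRNNYYCC, where R is A or G, Y is C or T and N is any base. Looser forms were not counted, such as ggaatttcc in the CXCL8 window. A gene without a match here may therefore still hold a kappaB site. A match of letters is a description of the window and not a binding site.

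The row of CCL20 was identified by its Ensembl identifier in the primer table of the study, whose primers are shown because they tie that row to the gene. Both matched RefSeq exons of CCL20 on chromosome 15, the forward primer in exon 1 (129172751 to 129172770, plus strand) and the reverse primer in exon 2 (129174026 to 129174045, minus strand).
Forward primer: aacatcacagcactcccagg
Reverse primer: atcggaggcagcagtcaaag

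The counts are bulk measurements of tissue pieces. In the ileum, 18772230 to 24338165 read pairs per library were counted on genes (median 20503630), and in the liver 18738055 to 42446834 (median 26678888). Levels are given as CPM, counts scaled to a common library size after TMM adjustment. Fold changes and p-values are from the quasi-likelihood test of edgeR, two-sided and adjusted by Benjamini-Hochberg over all genes tested, and a gene was called where its adjusted p did not exceed 0.05. The ileum libraries held the 7 epithelial markers fixed for the check at 8643 to 11877 CPM in sum, and 6 hepatocyte markers at no more than 1.58 CPM. Smooth muscle markers summed to 1625 to 8571 CPM and fibroblast markers to 3612 to 10290 CPM in the ileum. Control pig C-80 stood apart: 7 B cell markers summed to 632 CPM in its ileum, against 16.7 to 28.1 CPM in the other control pigs and 14.3 to 26.8 CPM in the PFA pigs. In the ileum C-80 also had the lowest control values of CCL20, CCL25, CCL28, CXCL8, CXCL9 and CXCL10.

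In the ileum, CCL20 had the largest difference between diets among the members, with every PFA pig below every control pig, and none of the 8 members was called. CXCL9 and CXCL10 had lower means with PFA, CCL28 and CXCL8 had higher means, and CCL25, CCL5 and CXCL12 had nearly equal means. The call rule was passed by 0 of the 8 members, and by 0% of the 14300 genes tested. At an unadjusted p under 0.05, 2 members (CCL20 and CXCL9) were lower with PFA and none higher, against 1.27% of all genes lower and 2.8% in either direction. DESeq2 called 0 of the members as well. The median log2 fold change of all genes was 0.02.

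**Figure D1:**
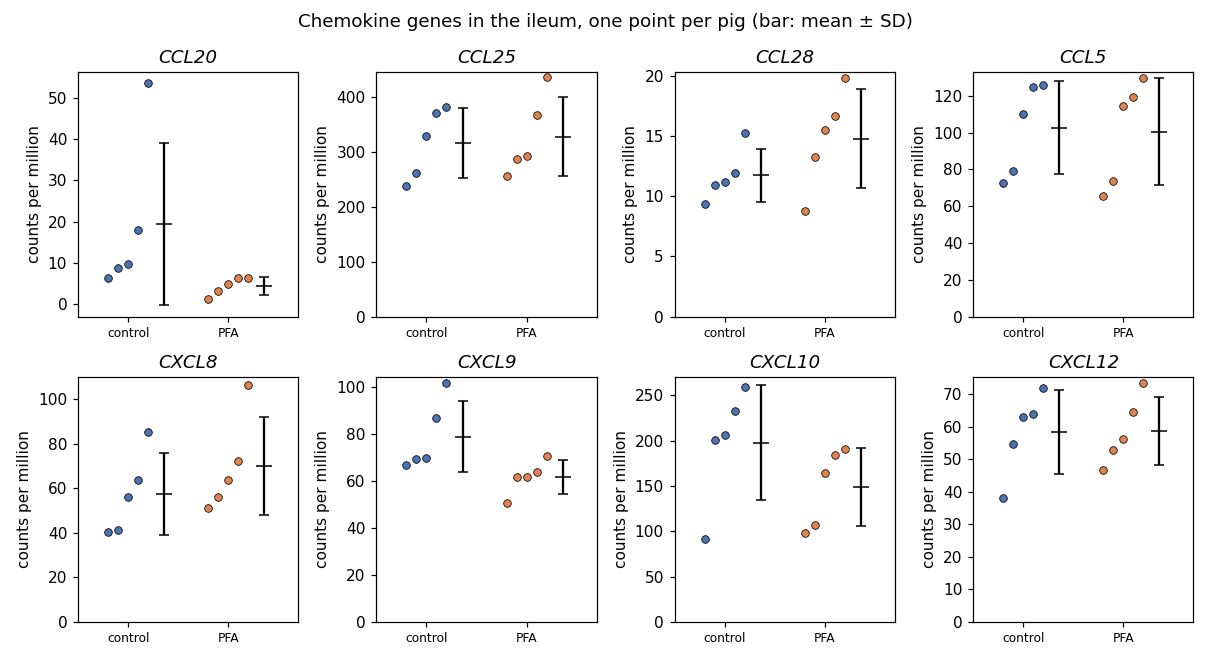
CPM of the 8 chemokine genes in the ileum, 1 point per pig, for 5 control and 5 PFA pigs, with the mean and SD beside each group. The CCL20 values of the PFA pigs (1.38 to 6.34 CPM) all lie below those of the control pigs (6.43 to 53.5 CPM), and in the other 7 panels the groups overlap.

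CCL20 (ENSSSCG00000016254, chromosome 15, 129172743 to 129176069) was at 6.43 CPM in C-80, 8.85 in C-110, 9.83 in C-92, 18.02 in C-100 and 53.5 in C-71. With PFA it was at 1.38 CPM in P-95, 3.14 in P-138, 4.93 in P-75, 6.25 in P-107 and 6.34 in P-134. The groups did not overlap, but the highest PFA value and the lowest control value lay close together, and C-71 was far above the other control pigs. Complete separation with PFA lower was found for 0.105% of all genes tested, 15 in number, and for 1 of the 8 members. The mean was 4.41 ± 2.13 CPM (SD, n = 5) with PFA and 19.3 ± 19.6 CPM (SD, n = 5) in the control group. The log2 fold change was -2.13 (SE 0.61, 95% interval -3.46 to -0.80), or 4.39-fold lower, with an unadjusted p of 0.00451 and an adjusted p of 0.991. CCL20 ranked 24 among all genes by p. The counts behind these values ran from 32 to 1280 read pairs.

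The size of the CCL20 difference depended on C-71. Without this pig the log2 fold change was -1.29, with an unadjusted p of 0.0129, and it ranged from -2.36 to -1.92 when any other pig was left out. Leaving out C-80, whose B cell markers were high and whose CCL20 was the lowest of the control group, gave -2.36. Follicle-associated epithelium, the epithelium that is best known for CCL20, was followed with 4 markers (GP2, SPIB, TNFAIP2 and SOX8). Their sum was 27.5 to 137.4 CPM in the control pigs, highest in C-80, and 20.3 to 55.7 CPM in the PFA pigs, so the groups overlapped. All 3 markers tested had negative log2 fold changes (median -0.19). SPIB was lower with PFA at an unadjusted p under 0.05 (log2 fold change -1.02, unadjusted p 0.0473, adjusted p 0.991), beside 1.27% of all genes. Of 6 B cell markers tested, 5 were also lower at that unadjusted p (median log2 fold change -2.56), and their sum was high in C-80 alone. Whether the SPIB value reflects follicle epithelium or the B cell content of C-80 was not tested. GP2, the defining marker of the antigen-sampling M cells, was at 0 in some libraries of each diet and reached 22.4 CPM in C-80. C-71, with the highest CCL20, had a marker sum of 44.5 CPM. The part of follicle content in the CCL20 difference was not tested, and in bulk samples fewer cells of a type and less RNA per cell cannot be told apart.

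CXCL9 (ENSSSCG00000032777, chromosome 8, 71665541 to 71670236) was at 66.99 CPM in C-80, 69.3 in C-110, 69.8 in C-92, 86.9 in C-71 and 101.7 in C-100. The PFA pigs were at 50.5 CPM in P-134, 61.8 in P-138 and P-95, 63.7 in P-107 and 70.6 in P-75. Only P-75 reached into the control range. The log2 fold change was -0.36 (SE 0.14, 95% interval -0.66 to -0.05), with an unadjusted p of 0.0249 and an adjusted p of 0.991. CXCL10 (ENSSSCG00000032474, chromosome 8, 71693641 to 71695948) was at 91.9 CPM in C-80 and at 200.1 to 259 CPM in the other control pigs. Its PFA values were 98.5 CPM in P-138, 107 in P-134, 164 in P-75, 184 in P-107 and 190.3 in P-95. All PFA pigs therefore lay below 4 of the 5 control pigs and above C-80. The log2 fold change of CXCL10 was -0.41 (SE 0.27, 95% interval -1.005 to 0.18), with an unadjusted p of 0.154. CXCL11, the remaining ligand of CXCR3, was looked at after its values were seen, and had a mean of 6.30 CPM with PFA and 10.1 CPM in the control group (log2 fold change -0.67, unadjusted p 0.0758).

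The epithelial homing chemokines did not differ beyond the spread between pigs. CCL25 (ENSSSCG00000013593, chromosome 2, 71175066 to 71206950) was at 237 to 382 CPM in the control pigs and at 256 to 435 CPM with PFA, with C-80 lowest and P-134 highest. Its log2 fold change was 0.05 (95% interval -0.34 to 0.44, unadjusted p 0.774). CCL28 (ENSSSCG00000016871, chromosome 16, 27990024 to 28010859) was at 9.33 CPM in C-80, 10.9 in C-92, 11.2 in C-110, 11.9 in C-71 and 15.2 in C-100. The PFA pigs were at 8.76 CPM in P-95, 13.2 in P-138, 15.5 in P-75, 16.6 in P-107 and 19.8 in P-134, and thus held both the lowest and the highest values of this gene. The log2 fold change of CCL28 was 0.33 (95% interval -0.14 to 0.80, unadjusted p 0.147).

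CXCL8 (ENSSSCG00000008953, chromosome 8, 69932646 to 69935861), the neutrophil attractant, was at 40.5 CPM in C-80, 41.5 in C-92, 56.1 in C-71, 63.8 in C-100 and 85.1 in C-110. With PFA it was at 50.9 CPM in P-138, 56.1 in P-134, 63.8 in P-95, 72.3 in P-107 and 107 in P-75. The groups overlapped widely, with a log2 fold change of 0.29 (95% interval -0.25 to 0.82, unadjusted p 0.263), and of 0.083 without P-75. CCL5 (ENSSSCG00000017705, chromosome 12, 39652731 to 39659121) was at 72.4 to 126.03 CPM in the control pigs and 65.6 to 130 CPM with PFA (log2 fold change -0.03, 95% interval -0.52 to 0.46). CXCL12 (ENSSSCG00000034973, chromosome 14, 91516383 to 91543857) was at 38.1 to 71.9 CPM and 46.6 to 73.4 CPM (log2 fold change 0.01, 95% interval -0.37 to 0.39).

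**Figure D2:**
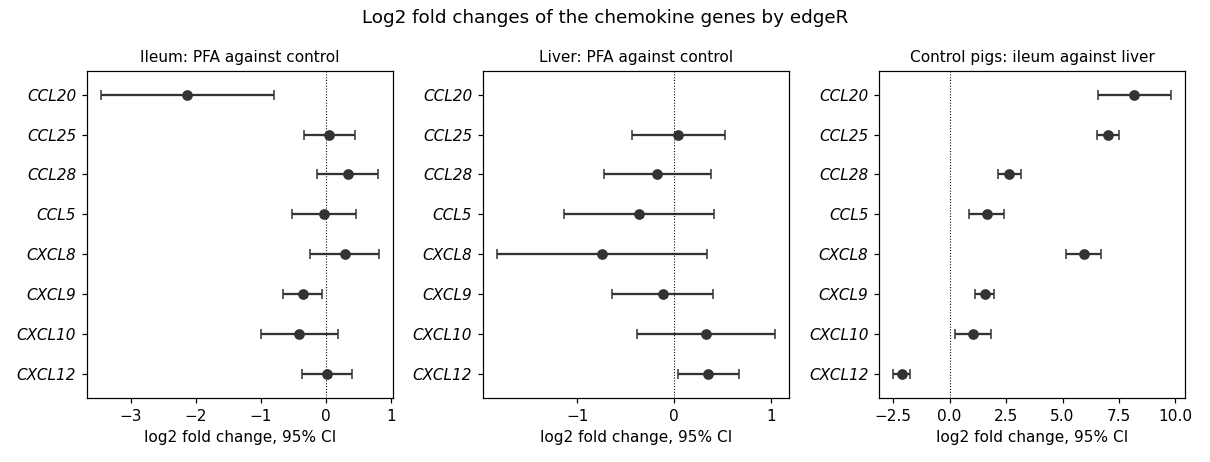
Log2 fold changes with 95% intervals for 3 comparisons: PFA against control in the ileum, PFA against control in the liver, and ileum against liver in control pigs, where a positive value means higher with PFA or higher in the ileum. The ileum value of CCL20 is -2.13 with an interval below 0, CCL20 was too low to be fitted in the liver, and between the tissues only CXCL12 is lower in the ileum.

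Levels of different genes were compared per length, as CPM per kilobase of RefSeq exons (from 450 bases in CXCL9 to 6661 in CXCL12). The authors counted on Ensembl models whose lengths were not used here, so the order is approximate. The place of CXCL9 in particular rests on its short RefSeq length. By CPM alone its mean in the control ileum was 78.9, against 316 for CCL25. In the control ileum CXCL9 (175 ± 33.3 CPM per kilobase, SD, n = 5), CXCL10 (174 ± 56.1), CCL5 (140 ± 34.6) and CCL25 (105.1 ± 21.4) were highest, and the ranges of neighbours in this order overlapped. CXCL8 followed at 38.6 ± 12.4 CPM per kilobase, below all values of CCL25. CCL20 (23.5 ± 23.9), CCL28 (13.1 ± 2.45) and CXCL12 (8.76 ± 1.93) were lowest, each overlapping in range with its neighbours. CCL20 had the widest spread for its level, with an SD of 101% of its mean in the control group.

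The receptors of these chemokines were measured in the same libraries. Of 14 receptors tested, 1 was higher with PFA at an unadjusted p under 0.05 and none lower, against 1.54% and 1.27% of all genes, and 0 passed the adjusted threshold. That receptor was CX3CR1, carried by monocytes and resident macrophages, whose ligand CX3CL1 was not analysed here. It was at 1.501 CPM in C-110, 1.63 in C-71, 2.43 in C-100, 2.44 in C-80 and 2.995 in C-92. With PFA it was at 3.07 CPM in P-107, 3.19 in P-95, 3.24 in P-138, 3.75 in P-134 and 5.22 in P-75. Every PFA pig was above every control pig, as for 0.455% of all genes, and its log2 fold change was 0.75 (SE 0.25, unadjusted p 0.0117, adjusted p 0.991). The sum of 5 macrophage markers was 127 to 269 CPM in the control pigs and 157 to 226 CPM with PFA.

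CCR6, the receptor of CCL20, was at 3.69 CPM in C-80 and at 0.05 to 0.67 CPM in the other control pigs, against 0.42 to 0.74 CPM with PFA. CXCR4, the receptor of CXCL12, was at 48.6 CPM in C-80 and at 6.86 to 11.2 CPM in the other control pigs, against 7.68 to 13.2 CPM with PFA. C-80 was thus the highest pig for both receptors, as it was for the B cell markers, and their part in these values was not tested. CCR9, the receptor of CCL25, was at 39.1 to 56.7 CPM and 37.1 to 64.1 CPM in the control and PFA pigs. CXCR3, which binds CXCL9 and CXCL10, was at 0.97 to 4.73 CPM and 1.08 to 3.46 CPM. Means of CCR10 and CCR3, the receptors of CCL28, were 0.78 and 22.4 CPM with PFA and 0.67 and 16.9 CPM in the control group. None of these had an unadjusted p under 0.05.

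Of 12 inducers and regulators of chemokine genes tested, 2 were lower with PFA at an unadjusted p under 0.05 (NFKBIA and RELB), none was higher, and 0 passed the adjusted threshold, beside 1.27% of all genes lower and 1.54% higher at the same unadjusted p. NFKBIA encodes the inhibitor that holds NF-κB in the cytoplasm and is itself induced by NF-κB. It was at 57.6 CPM in C-100, 58.4 in C-110, 60.9 in C-71, 75.7 in C-80 and 78.2 in C-92. In the PFA pigs NFKBIA was at 35.1 CPM in P-138, 41.9 in P-95, 42.3 in P-134, 44.4 in P-75 and 52.4 in P-107. The groups did not overlap, as for 0.105% of all genes with PFA lower, and the log2 fold change was -0.61 (SE 0.13, 95% interval -0.91 to -0.32, unadjusted p 0.000683, adjusted p 0.991), which ranked 4 among all genes. RELB, a subunit of the alternative NF-κB pathway, was at 6.60 to 22.8 CPM in the control pigs, highest in C-71 and C-80, and at 5.12 to 12.8 CPM with PFA (log2 fold change -0.84, unadjusted p 0.0324). RELA and NFKB1, which encode the subunits of the classical pathway, had log2 fold changes of -0.03 and 0.01. STAT3 and IRF1, which act downstream of cytokines and interferons, had log2 fold changes of 0.01 and -0.01.

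**Figure D3:**
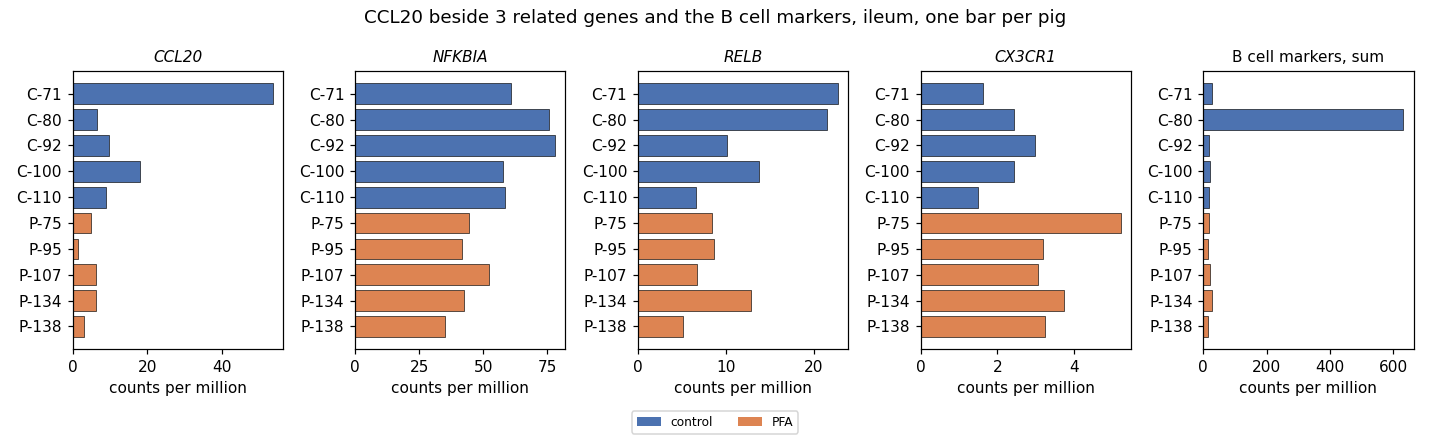
CPM in the ileum of each of the 10 pigs for CCL20, NFKBIA, RELB and CX3CR1 and for the sum of 7 B cell markers, 1 bar per pig, control pigs above PFA pigs. The PFA pigs are all lower for CCL20 and NFKBIA and all higher for CX3CR1, C-71 has the highest CCL20 (53.5 CPM), and C-80 alone has B cell markers at 632 CPM.

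Among 13 other chemokines tested, 1 was lower with PFA at an unadjusted p under 0.05 and none higher, beside 1.27% of all genes lower and 1.54% higher. This was PPBP, a platelet chemokine, at 2.85 to 8.46 CPM in the control pigs and 2.55 to 3.73 CPM with PFA (log2 fold change -0.66, unadjusted p 0.0413, adjusted p 0.991). The most abundant of these by CPM were CXCL14, an epithelial chemokine, at 172 to 210 CPM and 153 to 219 CPM, CCL26 at 30.7 to 89.8 CPM and 30.0 to 72.3 CPM, and CCL8 at 36.7 to 56.2 CPM and 36.7 to 85.7 CPM in the control and PFA pigs. Their log2 fold changes were 0.03, -0.12 and 0.19. The proteases ADAM10 and ADAM17, which release membrane-bound chemokines, and DPP4, which trims the ends of several members, had log2 fold changes of 0.13, 0.07 and 0.03, and 0 of the 3 had an unadjusted p under 0.05.

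The members varied over the 10 ileum libraries with few strong relations. Of 28 pairs compared by permutation (100000 resamples, two-sided), 0 passed an adjusted p of 0.05 by Pearson's r or by Spearman's rho. CCL5 and CXCL12 had a Pearson r of -0.77 (permutation p 0.0074, adjusted 0.207) and a Spearman rho of -0.87 (permutation p 0.00202, adjusted 0.0566). The r was -0.60 without the 2 libraries farthest from the median of CCL5 and -0.77 for deviations from the diet means. CXCL9 and CXCL10 had an r of 0.66 (permutation p 0.0350, adjusted 0.333) and a rho of 0.70 (permutation p 0.0305, adjusted 0.285), with r at 0.56 without the 2 farthest libraries and 0.60 within diets. CCL20 and CXCL9 had an r of 0.68 (permutation p 0.0356, adjusted 0.333) and a rho of 0.70 (permutation p 0.0300, adjusted 0.285), with 0.71 without the 2 farthest libraries and 0.41 within diets.

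Among 12089 genes with a symbol, the genes most like each member over the 10 ileum libraries were named by Pearson's r of log2 CPM. For CCL20 these were DEPP1 (r = 0.87) and VEGFA (r = 0.87), and for CCL25 they were HNF4A (r = 0.95), a transcription factor of the epithelium, and RDH5 (r = 0.92). For CXCL9 they were HERC6 (r = 0.92) and HERC5 (r = 0.92), both known as interferon-induced genes, and for CXCL10 they were WIPF3 (r = 0.89) and ARHGEF37 (r = 0.85). CXCL8 was most like C4BPB (r = 0.92) and SYNC (r = 0.90), CCL5 like ZZEF1 (r = 0.90) and PAFAH2 (r = 0.90), CCL28 like TM4SF18 (r = 0.84) and PPCDC (r = 0.83), and CXCL12 like CTNS (r = 0.95) and CPEB1 (r = 0.91). These values describe the same libraries in which all genes share depth and tissue makeup, and the highest of many correlations are high by selection.

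The comparison of tissues gives the setting of these genes. Library titles take different forms in ileum and liver, so tissue cannot be told apart from the set of libraries. The paper also gives a lower minimum RNA quality for the liver than for the ileum. In the control pigs all 8 members differed between ileum and liver, 7 higher in the ileum and CXCL12 higher in the liver (8 of 8 called, against 69.5% of all 14982 genes tested). Higher levels in the ileum were called for 36.4% of all genes and lower levels for 33.1%. Here the values come from 20 libraries of the 10 pigs with both tissues, scaled together. CCL20 passed the filter on low counts in these libraries but not in the liver fit, so it was tested here through its ileum counts. The groups did not overlap for 6 of the 8, against 56.4% of all genes, and CCL5 and CXCL10 overlapped.

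**Figure D4:**
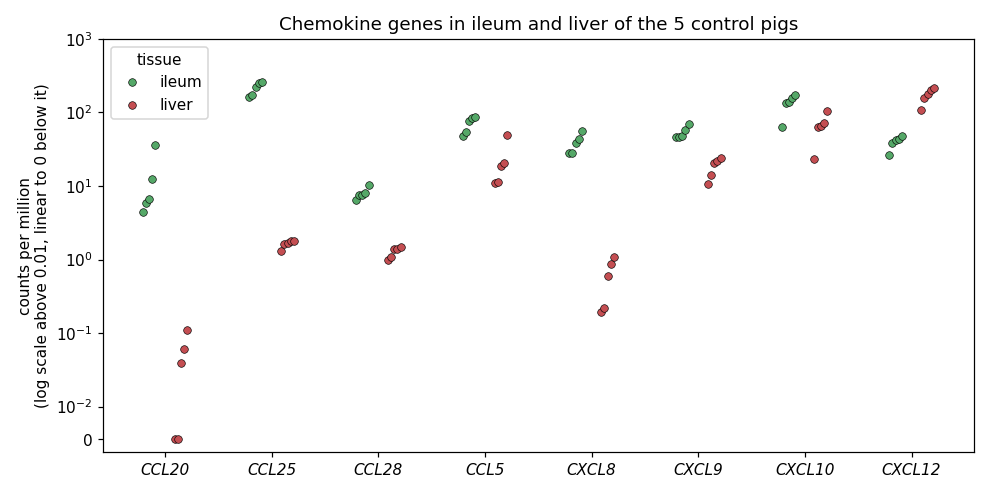
CPM of the 8 chemokine genes in the ileum and liver of the 5 control pigs that gave both tissues, on a log scale above 0.01 CPM and a linear scale below it. CCL20, CCL25 and CXCL8 show the widest gaps (4.45 to 36.1 against 0 to 0.11 CPM for CCL20), and CXCL12 is higher in every liver (107 to 217 CPM) than in any ileum (26.0 to 47.9 CPM).

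CCL20 was nearly absent from the control liver, with 0 counts in C-71 and C-110, 1 in C-92 and C-100 and 2 in C-80, against 165 to 1280 counts in the ileum of the same pigs. Its fitted log2 fold change was 8.18 (95% interval 6.55 to 9.81), which rests on these few liver counts. CCL25 was at 164 to 257 CPM in the ileum and 1.29 to 1.81 CPM in the liver, a log2 fold change of 7.02 (95% interval 6.54 to 7.49). CXCL8 was at 28.1 to 56.7 CPM and 0.19 to 1.10 CPM, a log2 fold change of 5.94 (95% interval 5.17 to 6.70). These genes were thus expressed far above the liver level in every ileum. CCL28 was at 6.46 to 10.4 CPM in the ileum and 0.98 to 1.48 CPM in the liver (log2 fold change 2.65).

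The lymphocyte and interferon chemokines differed less between tissues. CCL5 was at 48.2 to 86.0 CPM in the ileum and 11.01 to 49.98 CPM in the liver, where C-80 was highest, a log2 fold change of 1.65 (95% interval 0.87 to 2.43). CXCL9 was at 46.2 to 69.4 CPM and 10.7 to 24.4 CPM (log2 fold change 1.55). CXCL10 was at 63.6 to 174 CPM and 23.4 to 104 CPM (log2 fold change 1.03, 95% interval 0.24 to 1.82, adjusted p 0.0202), with C-80 the lowest pig in both tissues, and without the liver of C-80 its value was 0.82 and the call was lost (adjusted p 0.0511). CXCL12 was at 26.0 to 47.9 CPM in the ileum and 107 to 217 CPM in the liver (log2 fold change -2.12, 95% interval -2.50 to -1.74).

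The effect of PFA in the ileum was then set against its effect in the liver of the same 10 pigs. The difference passed the adjusted threshold for 0 of the 8 members and 0% of all genes tested. CCL20 had a difference of -2.55 on the log2 scale (ileum effect minus liver effect, 95% interval -5.72 to 0.62, unadjusted p 0.109). Its liver part rests on 0 to 2 counts per control library and 1 count per PFA library, so no liver effect can be read from it. The difference was 1.15 for CXCL8 (95% interval 0.05 to 2.26, unadjusted p 0.0417, adjusted p 0.976), -0.68 for CXCL10, -0.43 for CXCL9 and -0.40 for CXCL12. At an unadjusted p under 0.05 there was 1 member, CXCL8, against 4.93% of all genes. Over the 10 pigs, ileum and liver levels of the same gene were compared by permutation for the 8 members, and 0 passed after adjustment. CCL25 had the strongest relation, with a Pearson r of -0.70 (permutation p 0.0189, adjusted 0.151), a Spearman rho of -0.55 (permutation p 0.106, adjusted 0.65), and an r of -0.56 without the 2 pigs farthest from the ileum median.

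In the liver by itself, 7 members passed the filter on low counts, and CCL20 did not. CCL20 had 0 to 7 counts in each of the 23 livers, with both libraries of 7 counts (OP-98 and OP-126) in the OO + PFA group, and the limit of 3 counts corresponded to 0.07 to 0.16 CPM. Across the 4 diets 0 of the 7 members were called, against 3.66% of 13831 genes tested. At an unadjusted p under 0.05 there were 2 members (CCL25 and CXCL10), against 25.2% of all genes.

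**Figure D5:**
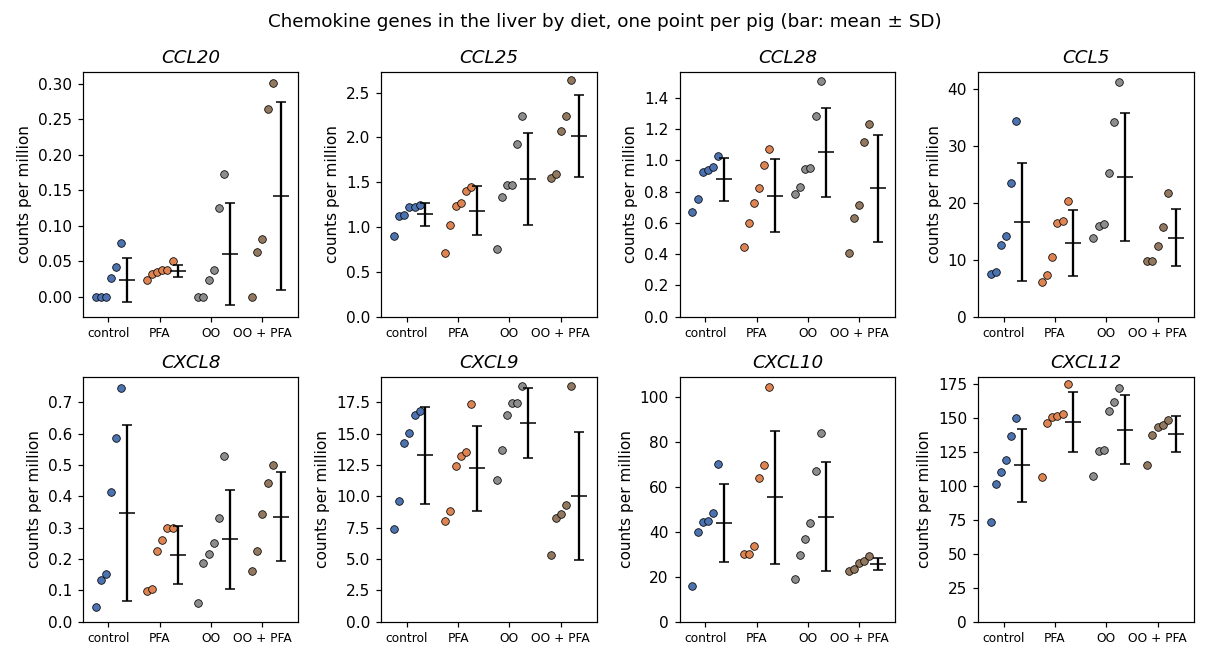
CPM of the 8 chemokine genes in the liver, 1 point per pig, for 6 control, 6 PFA, 6 OO and 5 OO + PFA pigs, with the mean and SD beside each group. CCL25 is highest in OO + PFA (1.55 to 2.64 CPM, against 0.90 to 1.25 CPM in the control pigs), and CXCL10 in OO + PFA lies within 22.7 to 29.2 CPM.

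CCL25 in the liver was at 0.90 to 1.25 CPM in the control pigs (median 1.17), 0.71 to 1.45 with PFA (median 1.25), 0.76 to 2.24 with OO (median 1.47) and 1.55 to 2.64 with OO + PFA (median 2.07). The test over the 4 diets gave an unadjusted p of 0.00643 and an adjusted p of 0.0836, and the counts behind these levels were 19 to 71 per library. The call was reached without the liver of OO-97 (adjusted p 0.0263), with all 24 libraries (0.0371) and with DESeq2 (0.0378). The run with all 24 libraries includes OP-77, in which the study suspected RNA degradation.

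PFA against control in the liver gave 0 of 7 members and 0% of all genes called, and 1 member (CXCL12) at an unadjusted p under 0.05, higher with PFA, against 11% of all genes in either direction and 3.8% higher. CXCL12 was at 73.6 to 150 CPM in the control livers and 106 to 175 CPM with PFA, with C-80 lowest, a log2 fold change of 0.35 (95% interval 0.04 to 0.67, unadjusted p 0.0294, adjusted p 0.42). OO against control gave 0 of 7 members called, against 2.71% of all genes, and 0 members at an unadjusted p under 0.05, against 21.4% of all genes.

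OO + PFA against OO gave 0 of 7 members and 0% of all genes called. CXCL9 and CXCL10 were lower at an unadjusted p under 0.05, against 4.48% of all genes lower and 8.5% in either direction. CXCL10 was at 19.1 to 83.8 CPM in the OO livers (median 40.3) and at 22.7 CPM in OP-126, 23.3 in OP-105, 26.2 in OP-98, 27.3 in OP-137 and 29.2 in OP-79. The OO + PFA livers lay close together within the lower part of the OO range, and the log2 fold change was -0.86 (95% interval -1.62 to -0.10, unadjusted p 0.0286, adjusted p 0.548). CXCL9 was at 11.3 to 18.8 CPM in the OO livers (median 17.0) and at 5.36 CPM in OP-126, 8.28 in OP-105, 8.56 in OP-137, 9.28 in OP-98 and 18.8 in OP-79. All but OP-79 were below the OO range, and the log2 fold change was -0.66 (95% interval -1.21 to -0.10, unadjusted p 0.0221, adjusted p 0.516). CCL5 was at 13.9 to 41.3 CPM with OO and 9.73 to 21.8 CPM with OO + PFA (log2 fold change -0.81, 95% interval -1.63 to 0.01, unadjusted p 0.0524). Beside these, 5 markers of cytotoxic lymphocytes summed to 28.3 to 66.8 CPM with OO and 19.0 to 30.6 CPM with OO + PFA, and 7 T cell markers to 31.8 to 72.2 CPM and 27.6 to 49.8 CPM. The sums of 5 macrophage markers overlapped, at 293 to 821 CPM with OO and 461 to 931 CPM with OO + PFA. Of these 5 markers, 2 were lower and 3 higher with OO + PFA (median log2 fold change 0.08), and 0 had an unadjusted p under 0.05. The part of lymphocyte or macrophage content in these differences was not tested.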

How the data were processed

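RNA of ileum and liver pieces was sequenced from stranded poly(A) libraries. Per the labels and the methods, the authors aligned read pairs with STAR 2.6.1d to Sscrofa11.1 and counted them per Ensembl gene with HTSeq; the annotation release and the strand option were not given in the sources used here. The deposited values are raw counts per gene, without normalization, and replicates were not pooled. How read pairs shared by overlapping genes were counted was not given in the sources used here.

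Symbols came from a gene name table, and CCL20 from the identifier in the study's primer table. Members and lists were chosen with earlier results of these data known. The genes named were all members, the list genes at an unadjusted p under 0.05 in the ileum, the receptors of members, the 3 most abundant other chemokines and the 2 genes most like each member. RELA, NFKB1, STAT3, IRF1, ADAM10, ADAM17, DPP4 and CXCL11 were named after their values were seen. Some list genes are not reported here by name. Counts were scaled by TMM, filtered with filterByExpr and tested with edgeR 4.0.16 (limma 3.58.1, R 4.3.3) by the quasi-likelihood test, two-sided, with Benjamini-Hochberg adjustment. The ileum fit held 10 libraries, the liver fit 23 and the joint fit 20. Log2 CPM used a prior count of 2. DESeq2 1.42.0 was an alternative, beside other scaling, other filters, a term for the title form, all 24 livers and leaving out each pig. Liver titles start with PigLiv or PL, spread unevenly over the diets, and C-80 and C-85 are the control livers titled PL. What these forms stand for was not given in the sources used here. Fits were tested on simulated data. Correlations, promoters and figures were made with Python 3.11.15, numpy 2.4.6, scipy 1.17.1, pandas 2.3.3 and matplotlib 3.10.9, and promoters were read from the RefSeq genome and annotation of Sscrofa11.1. Between 18738055 and 42446834 read pairs per library were counted on genes, and a gene with 3 counts is near the limit of detection, which covers counting error only. Each library is a different pig or tissue of a pig, and since pigs of a diet shared a pen, p-values measure the spread between pigs of a pen. The ileum and liver of a pig carry the same number in the titles. Over the 10 pigs, deviations from the group means correlated between the tissues by -0.18 to 0.46, above 0.1 in 8 pigs, and 4 ileum libraries matched the liver of their own pig best.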

Additional observations from a re-analysis of the deposited data

Results flagged for a closer look

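Over 56 sets of values (a gene in a group of 5 or 6 pigs), 2 had a pig whose gap to the others was large for its group by Dixon's criterion at 95%, where chance flags about 1 in 20 sets. CCL20 in the control ileum was at 53.5 CPM in C-71 and at 6.43 to 18.02 CPM in the other 4 pigs. CCL25 in the control liver was at 0.896 CPM in C-71 and at 1.12 to 1.25 CPM in the other 5 pigs, with 20 counts in C-71. Both values belong to the same pig. No member had a PFA effect that differed between ileum and liver at an adjusted p of 0.05 (edgeR), and 1 (CXCL8) did at an unadjusted p under 0.05.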

How the results depend on the processing

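The 69 results had 1707 alternative values. Of these, 1663 kept their direction and their side of the threshold, 35 reversed, 1 lost and 4 gained a call. The other 4 are counts of called members or pairs that went from 0 to 1 in the same runs as the 4 gained calls. The cause of these changes was not tested. In the ileum 0 members were called under every alternative run. The reversals belong to values near 0. Leaving out C-80 and P-134 together, an alternative added after seeing the data, gave -0.19 for CCL25, -0.026 for CXCL12 and 0.096 for CCL28 (from 0.33) in the ileum, and leaving out single pigs gave -0.072 to 0.13 for CCL25, -0.14 to 0.072 for CCL5 and -0.11 to 0.097 for CXCL12. In the liver, leaving out single pigs gave -0.025 to 0.15 for CCL25 with PFA against control, -0.16 to 0.27 for CXCL10 with OO against control and -0.10 to 0.029 for CXCL12 with OO + PFA against OO, and the last was 0.070 without TMM and 0.0076 with all 24 libraries. The comparisons of OO with control and of OO + PFA with OO were added after seeing the data. For the PFA effect in ileum against liver, leaving out single libraries gave -0.21 to 0.026 for CCL25 and -0.47 to 0.26 for CCL5.

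With the pig as a replicate block, 8 members were called between tissues and 0 for the PFA effect in ileum against liver, and CCL5 turned to -0.069 in the latter; the block changed no other direction or call. Across the 4 liver diets the count of called members was 1 (CCL25) with DESeq2 and 1 with all 24 libraries, and 0 to 1 when single livers were left out, with 1 without OO-97. The count of called member pairs was 0 to 1 when single pigs were left out, with 1 (CCL5 and CXCL12, r -0.87, permutation p adjusted 0.0342) without C-71. Without TMM the median of all genes between tissues moved from 0.05 to 1.15, and the 8 members kept their directions and calls, with CXCL12 at -1.03 (from -2.12), CXCL10 at 2.10 (from 1.03), CXCL9 at 2.63 (from 1.55) and CCL5 at 2.78 (from 1.65); with at least 10 counts in every library 6 members were left, and 6 were called.

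Counts over all genes depended on the tool. DESeq2 called 4 genes in the ileum where edgeR called 0, 1776 against 506 across liver diets (1114 with all 24 libraries), 43 against 0 for PFA against control in the liver, 1079 against 375 for OO against control (224 with all 24) and 31 against 0 for OO + PFA against OO (1 with all 24). Leaving out single livers, edgeR called 297 genes (without C-85) to 1450 (without OO-97) across diets, 167 (without OO-130) to 1325 (without OO-97) for OO against control and 0 to 7 for OO + PFA against OO. CCL20, at 0 to 7 counts per liver, was too low for a test of diet there.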

Other observations

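The row named CCL16, chosen after its values were seen, was at 911 ± 107 CPM (SD, n = 6) in the control livers and at 0.034 ± 0.034 CPM (n = 5) in the control ileum. Ileum and liver were scaled separately for these values, and the symbol is that of the gene name table.

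The liver of OP-77, left out of the liver fits, had 0 counts of CCL20, 41.8 CPM of CCL5, 5.18 CPM of CXCL9, 13.1 CPM of CXCL10 and 161 CPM of CXCL12. Its CXCL10 was below, and its CCL5 above, the values of the other 5 OO + PFA livers. RNA degradation was suspected in this library by the study, and its part in these values was not tested.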
